A study of Mus musculus with 12 samples.

Results

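Macrophages from mice without the long noncoding RNA lincRNA-EPS were compared after 6 h of lipopolysaccharide (LPS, which Gram-negative bacteria carry on their surface) and before it, by the regions of open chromatin found in each. The assay was ATAC-seq, where a transposase (Tn5) cuts accessible DNA and leaves adapters for sequencing at the cuts. Regions were chosen by a call rule on the 4 deposited peak lists of the 2 groups, KO 6 h and KO 0 h, with 2 libraries each. Peaks of these lists that overlapped by at least 1 bp were chained into 100253 regions. A region was gained when 2 of 2 libraries at 6 h and 0 of 2 at 0 h called it, and lost in the reverse case. This gave 15214 changed regions, 14612 gained and 602 lost, among the 100253 regions of the 4 lists. The 12 lists of the series chain into 115231 regions.

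Both groups are lincRNA-EPS KO macrophages of female C57BL/6 mice, grown from bone marrow for 9 days in 20% L929 macrophage growth supplement. The label of both groups names LPS at 100 ng/ml, for 6 h in the first and for 0 h in the second, and each reaction used 50000 cells. Libraries from KO at 2 h and from WT (wild type) mice at 0, 2 and 6 h, made with the same background strain, medium and dose, did not enter the rule and are used to read the same regions. Nothing in the labels says that replicates are separate mice or cultures, so p-values measure only a spread between libraries that may be technical. The peak names inside the 4 lists labelled 2 h read 1 h, so the middle time may be 1 h.

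LPS is sensed on macrophages by the receptor TLR4, which activates the transcription factors NF-κB, AP-1 and the interferon regulatory factors. In resting macrophages most enhancers are held open by lineage factors such as PU.1, and stimulation opens further enhancers at which the signal-driven factors bind beside them. lincRNA-EPS is an RNA of macrophages and other blood cells that the title of the study casts as a brake on inflammatory transcription. All coordinates are mm9. Gene annotation and genome sequence of that build were not used here, so regions are given by position, and neither macrophage marker genes nor the deleted gene was checked. A bulk peak also cannot tell more cells with an open site from more opening per cell.

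Of all 12 libraries the 2 from KO at 0 h were the shallowest, which bears on every count below. Depth was recovered from the lists as the lowest background coverage behind any peak, in reads. It was 3.35 and 2.17 reads in the KO libraries at 6 h, against 1.77 and 1.43 reads in those at 0 h. The shallowest library, KO 0 h replicate 2, had 42.6% of the background of the deepest, KO 6 h replicate 1. The smallest called summits held 12 and 9 reads at 6 h, which is 3.59 and 4.14 times background. At 0 h they held 8 reads in both libraries, which is 4.51 and 5.61 times background, so a weak site had to stand higher over background to be called there. At the 46316 regions called in all 4 libraries, median summit coverage was 19.7 and 21.2 times background at 6 h, against 22.6 and 21.7 times at 0 h. The 2 times thus did not overlap in depth, while the height of their shared peaks was similar.

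**Figure D1:**
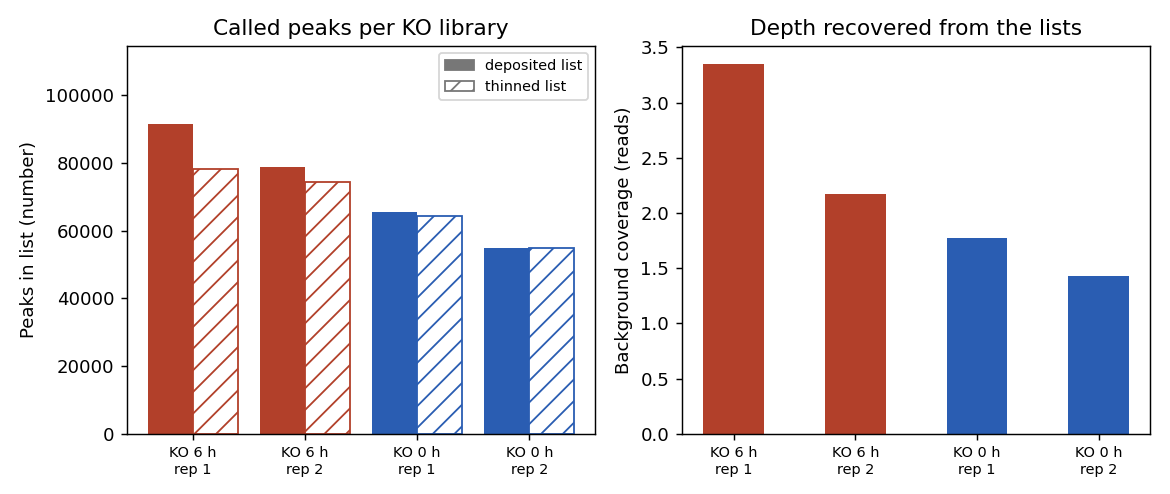
Left, number of called peaks in each KO library, 6 h in red and 0 h in blue, as deposited (filled) and after thinning to the background of KO 0 h replicate 2 (hatched). Right, background coverage in reads recovered from each list. Both 6 h libraries lie above both 0 h libraries in peaks, before and after thinning, and in background coverage.

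More peaks were called at 6 h than at 0 h in every pairing of KO libraries. The lists held 91610 and 78766 peaks at 6 h, against 65506 and 54771 peaks at 0 h. The groups did not overlap, and the means were 85188 ± 9082 and 60138.5 ± 7591 (SD, n = 2 libraries each), a difference of 25049.5 peaks and a ratio of 1.42. The exact two-sided permutation test gave p = 0.333, which is the smallest p that 2 libraries against 2 allow. Peaks covered 48.1 and 39.5 Mb at 6 h, against 32.7 and 27.5 Mb at 0 h, with the same exact p = 0.333. To put the lists at one background coverage, reads at each summit were dropped at random until the background equalled that of KO 0 h replicate 2, and peaks with −log10 p of at least 4.18 were kept. The thinned lists held 78303 and 74478 peaks at 6 h, against 64325 and 54770 at 0 h. The difference was then 16843 peaks, and the groups again did not overlap. Set beside WT, where the difference was 16452.5 peaks, the change in KO was larger by 8597 peaks (exact permutation p = 0.389, the smallest possible being 0.0556). In thinned lists it was larger by 2513 peaks (exact permutation p = 0.778).

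By regions, the change ran mostly one way. Gained regions were 14.6% of all regions of the 4 lists and lost regions 0.600%, so that 96.0% of the changed regions were gained. Since the rule is these calls, the shares are a description and carry no test. A further 46316 regions were called in all 4 libraries, which is 46.2% of the total. Next to the gained class stood 10593 regions that missed it by 1 call at 0 h. Of these, KO 0 h replicate 1 alone called 8338 and the shallower replicate 2 alone called 2255. Another 17850 regions missed it by 1 call at 6 h, with 13728 called in replicate 1 alone, the deepest library, and 4122 in replicate 2 alone. In both cases the deeper library of the pair held most of these calls. Next to the lost class, 2008 regions were still called in 1 library at 6 h, and 3892 were called in 1 library at 0 h and in neither at 6 h.

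**Figure D2:**
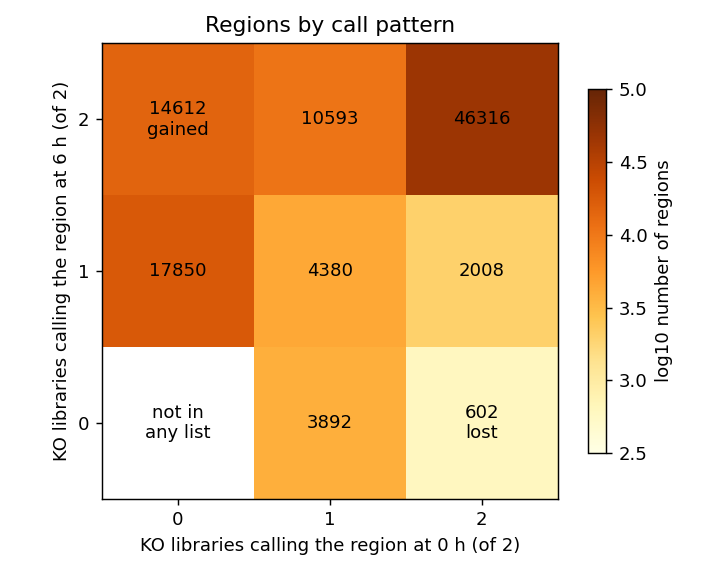
Regions of the 4 KO lists by the number of libraries that called them at 6 h (vertical) and at 0 h (horizontal), with the log10 number of regions as colour. The gained class holds 14612 regions and the lost class 602, beside 46316 called in all 4 libraries.

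The size of both classes changed when lists were thinned or cut, and when single libraries were compared or left out. In thinned lists 11025 regions were gained (11.9%) and 1246 lost (1.34%), and 89.8% of the changed regions were gained. When every list was cut to its 54771 peaks of highest −log10 q, so that a list can gain a peak only by losing one, 5234 were gained and 3490 lost. With 1 library at 6 h set against 1 at 0 h, gained regions were 72.2% to 95.2% of the changed ones as deposited and 67.9% to 86.9% after thinning, so they were the majority in all 4 pairings. The lowest share came from KO 6 h replicate 2 against KO 0 h replicate 1, with 21893 gained and 8440 lost. Leaving out KO 6 h replicate 1 gave 19295 gained and 2384 lost regions. Leaving out its partner at 6 h gave 28603 and 875. At 0 h, 23024 and 1535 were found when replicate 1 was dropped, and 16890 and 3622 when replicate 2 was. A lone library needs 1 call where a pair needs 2, which by itself enlarges both classes.

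The strongest gained regions were tall peaks at 6 h where neither library at 0 h held a peak. They are ranked by the mean within-library percentile of −log10 q at 6 h, a value of the authors' peak caller. The first, on chromosome 18 at 11886296 to 11887045, had 122 and 94 summit reads in the KO libraries at 6 h, which is 36.5 and 43.3 times background, and no peak in either at 0 h. Its mean percentile was 98.1 ± 0.35 and its mean fold over local background 14.9 ± 0.38 (SD, n = 2). Neither KO library at 2 h and no WT library at 0 or 2 h called it, while both WT libraries at 6 h did, at 34.1 and 40.3 times background. In both genotypes it was called at 6 h alone.

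The second, on chromosome 12 at 32831327 to 32832158, behaved otherwise. It had 130 and 99 summit reads at 6 h in KO, 38.9 and 45.6 times background, and no peak at 0 h. KO libraries at 2 h held 18 and 21 reads there. All 6 WT libraries called it, with 17 and 19 reads at 0 h, 15 and 20 at 2 h, and 90 and 104 at 6 h. In WT this site therefore carried a small peak before LPS, at 7.23 and 7.58 times background. The same pattern was found on chromosome 2 (22616671 to 22617274), with 105 and 76 summit reads in KO at 6 h and 28 and 24 at 2 h. Its WT libraries held 17 and 19 reads at 0 h and 75 and 81 reads at 6 h. Both are gained in KO by the rule, while their WT counterparts were small peaks that stood taller at 6 h. Why the KO lists at 0 h hold no peak at either site was not tested.

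At 4 of the 12 named gained regions all 4 libraries at 2 h, KO and WT, held a peak and no library at 0 h did. On chromosome 3 at 135302986 to 135303677, KO libraries held 58 and 61 summit reads at 2 h, 20.8 and 20.0 times background, and 152 and 106 at 6 h, 45.4 and 48.8 times. WT libraries had no peak at 0 h, 37 and 50 reads at 2 h, and 119 and 102 at 6 h. On chromosome 17 at 87349287 to 87350131, KO libraries stood at 14.0 and 10.5 times background at 2 h and at 36.2 and 46.0 times at 6 h. Chromosome 9 at 45976793 to 45977532 was lower at 2 h, at 8.24 and 8.54 times background, and at 34.4 and 35.0 times at 6 h. The lowest of the 4 at 2 h in KO was the region on chromosome 17 from 17591364 to 17592117, at 5.73 and 6.24 times background, and it stood at 34.1 and 38.7 times at 6 h. WT libraries held 22 and 18 reads there at 2 h, 7.25 and 7.76 times background, and 100 and 89 reads at 6 h. All 4 were taller over background at 6 h than at 2 h in every library of both genotypes.

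Among the remaining 5 of the 12 named gained regions, the one on chromosome 5 at 68024629 to 68025628 was called at 6 h alone. It had 99 and 83 summit reads at 6 h in KO, 29.6 and 38.2 times background, and 75 and 80 in WT at that time. On chromosome 14 at 58102863 to 58103499 the peaks stood at 29.0 and 35.9 times background at 6 h, and both KO libraries at 2 h called it while no WT library did at that time. That genotype difference at 2 h was not tested, and the KO peaks then held 25 and 20 reads. The same was seen on chromosome 2 at 84351404 to 84352260, where KO libraries at 2 h held 20 and 15 reads. The regions of chromosome 13 from 111423403 to 111424326 and of chromosome 3 from 133099358 to 133100456 were called in both KO libraries and 1 WT library at 2 h. Of the 12, 10 were called in both KO libraries at 2 h and 2 in neither, and 10 met the same gain rule in WT, the exceptions being the chromosome 12 region and the one at 22616671 on chromosome 2. Over all gains, 24.0% were called in both KO libraries at 2 h and 44.3% met the gain rule in WT. Over all regions these shares were 62.3% and 10.8%.

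**Figure D3:**
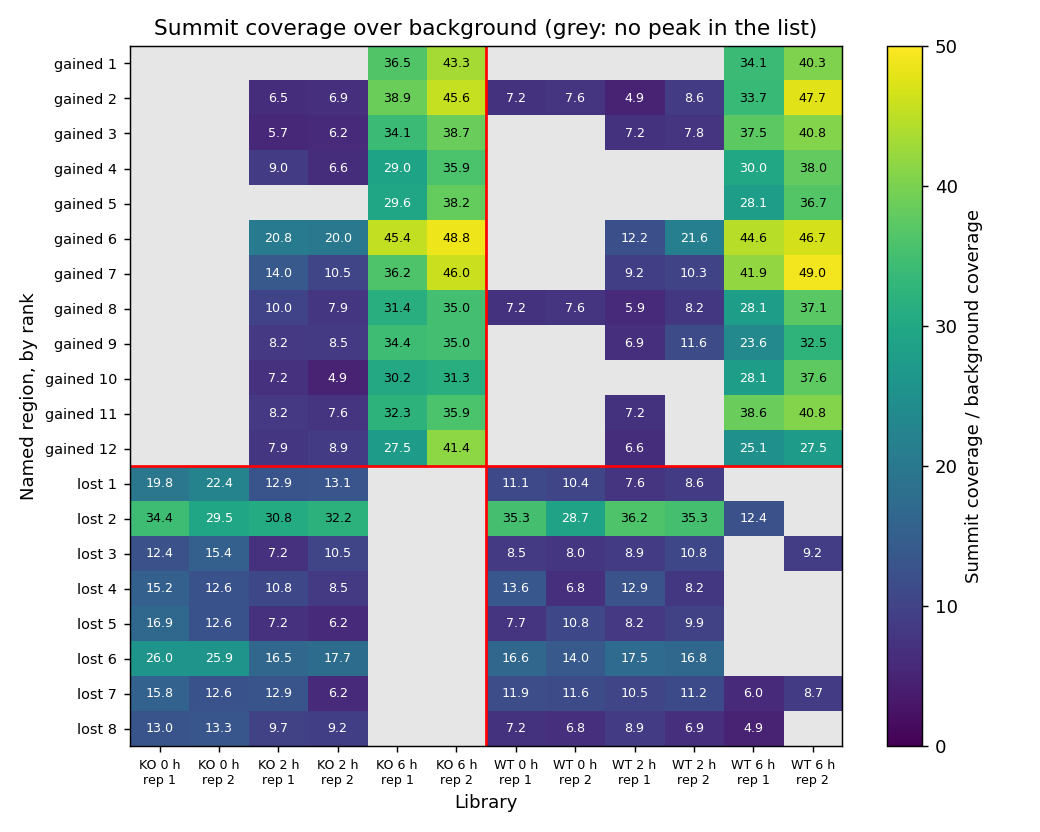
Summit coverage over the background coverage of the library, in the 12 named gained and the 8 named lost regions (rows, in rank order) and all 12 libraries (columns, KO left and WT right). Grey marks a library whose list holds no peak there. The gained regions stand at 27.5 to 48.8 times background in KO at 6 h and at 4.93 to 20.8 times where KO libraries at 2 h call them, and the lost regions at 12.4 to 34.4 times in KO at 0 h.

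The named lost regions were lower peaks. All were called in both KO libraries at 2 h, against 62.3% of all regions. The first, on chromosome 4 at 19765162 to 19765828, had no peak in KO at 6 h, against 35 and 32 summit reads at 0 h, which is 19.8 and 22.4 times background. Its mean percentile at 0 h was 69.1 ± 0.16 and its mean fold 10.2 ± 0.33 (SD, n = 2). KO libraries at 2 h held 36 and 40 reads there, 12.9 and 13.1 times background. In WT it stood at 11.1 and 10.4 times background at 0 h, at 7.58 and 8.62 times at 2 h, and had no peak at 6 h. The second, on chromosome 8 at 87223736 to 87224269, was the tallest of the 8 over the genome-wide background. It had no peak in KO at 6 h, against 61 and 42 summit reads at 0 h, 34.4 and 29.5 times background, and 86 and 98 reads at 2 h. WT libraries held 83 and 72 reads at 0 h and 110 and 82 at 2 h, and at 6 h 1 of the 2 held a peak, of 33 reads. Its fold over local background at 0 h was 5.21 ± 0.24 (SD, n = 2), and a region called in all 4 KO libraries lay 837 bp away.

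Further lost regions with no WT peak at 6 h were 86569934 to 86570399 of chromosome 6, 69927951 to 69928455 of chromosome 11 and 123183035 to 123183451 of chromosome 9. The last had 46 and 37 summit reads in KO at 0 h, 26.0 and 25.9 times background, and 46 and 54 reads at 2 h. The other 2 stood at 12.6 to 16.9 times background in KO at 0 h. Those of chromosome 8 from 27722432 to 27722943 and of chromosome 9 from 53932039 to 53932494 and from 95080803 to 95081303 were lost in KO and still called in 1 or 2 WT libraries at 6 h. All 8 were called in both KO libraries at 2 h, and 4 of the 8 met the loss rule in WT. Over all lost regions these shares were 58.6% and 24.9%, and over all regions 62.3% and 1.47%.

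The lowest-ranked members had −log10 q values near the lowest in their lists. The lowest gained region, on chromosome 13 at 20921170 to 20921453, had 25 and 15 summit reads at 6 h, with −log10 q of 3.43 and 2.56. The lowest lost region, on chromosome 6 at 5101562 to 5101825, had 10 and 9 summit reads at 0 h. As a class, gained peaks had a median of 29 and 20 summit reads in the libraries at 6 h, 8.67 and 9.21 times background. Lost peaks had medians of 17 and 15 reads at 0 h, 9.59 and 10.5 times background. Both classes lay below the regions called in all 4 libraries, whose medians are given above. The rule itself favours this, since a changed region lacks a call in 2 of the 4 libraries. The width of a gained region had a median of 399 bp and that of a lost region 350 bp, against 675 bp for regions called in all 4. Regions called in all 4 are chained from peaks of 4 lists and changed regions from 2, which by itself adds width to the former. The widest gained region, on chromosome 6 at 123229997 to 123231505, spanned 1509 bp, and the widest lost region, on chromosome 14 at 52497219 to 52497900, 682 bp. Their mean percentiles were 35.1 ± 3.2 and 9.02 ± 0.24 (SD, n = 2). The summits of the 2 libraries lay a median of 48 bp apart in gained and 54.5 bp apart in lost regions, against 32 bp between the 6 h libraries in regions called in all 4.

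**Figure D4:**
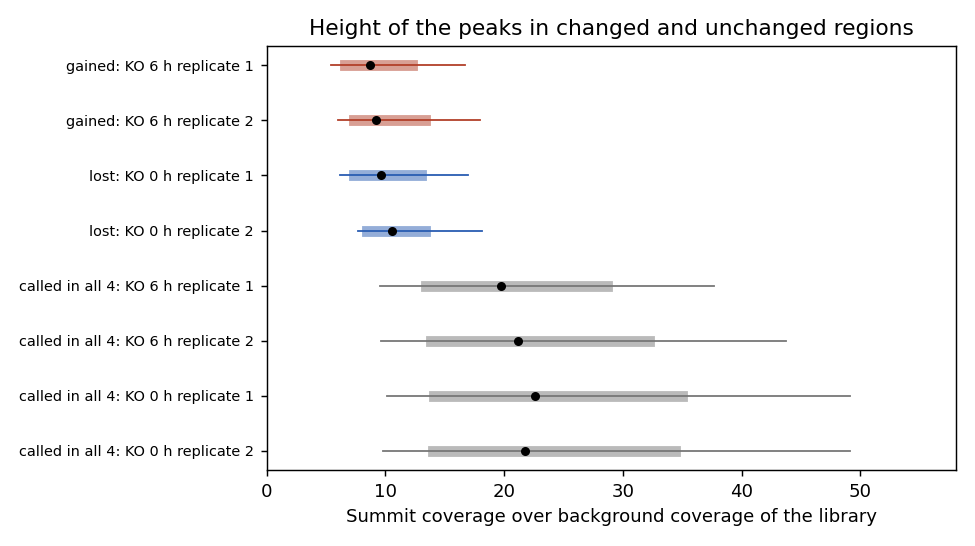
Summit coverage divided by the background coverage of the same library, for the peaks of gained regions (6 h libraries, red), lost regions (0 h libraries, blue) and regions called in all 4 KO libraries (grey). Points are medians, thick bars run from the 25th to the 75th percentile and thin lines from the 10th to the 90th percentile over regions. Medians of gained and lost peaks lie at 8.67 to 10.5 and those of regions called in all 4 at 19.7 to 22.6.

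Of the 14612 gained regions, 10760 (73.6%) met the rule again when the lists were thinned to one background coverage. Weak 6 h peaks are the ones that thinning removes, so by construction the regions that dropped out were mostly low in rank. Of 4 equal groups of 3653 by mean percentile, the lowest kept 41.8% and the highest, which begins at the 43.9 percentile, 98.5%. Of the 602 lost regions, 569 (94.5%) met their rule again, which the procedure largely fixes, since thinning can only remove peaks at 6 h and hardly altered the lists at 0 h. In the same 4 groups, lowest to highest, the share that was also gained in WT was 23.2%, 35.9%, 50.3% and 67.6%. Over all regions the share was 10.8%, and it was not split by rank there. Rank here is that within the KO libraries at 6 h, which the WT calls did not enter. Whether the rise with rank is particular to gained regions was not tested.

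The 8 libraries that did not enter the rule gave a reading of the same regions at other times and in WT. WT libraries called 21.3% and 20.5% of the KO gained regions at 0 h, 38.6% and 30.5% at 2 h, and 75.9% and 80.1% at 6 h. Over all 100253 regions the same libraries called 63.3% and 62.8% at 0 h, 71.6% and 66.4% at 2 h, and 76.1% and 78.2% at 6 h. In WT the gained regions were called less often than the average region at 0 h and about as often at 6 h. For the lost regions the order was the opposite, with WT calls at 67.9% and 66.1% at 0 h, 80.4% and 67.1% at 2 h, and 28.7% and 32.6% at 6 h. In lists thinned to one background coverage, the gained regions were called in 17.8% and 15.5% at 0 h and 64.4% and 75.0% at 6 h. Calls on lost regions, thinned likewise, were 63.1% and 57.8% at 0 h and 20.1% and 27.9% at 6 h. Over all regions the thinned WT lists called 60.3% and 58.8% at 0 h and 69.6% and 75.1% at 6 h. No p is given for these shares, since they are scores over the chosen regions.

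**Figure D5:**
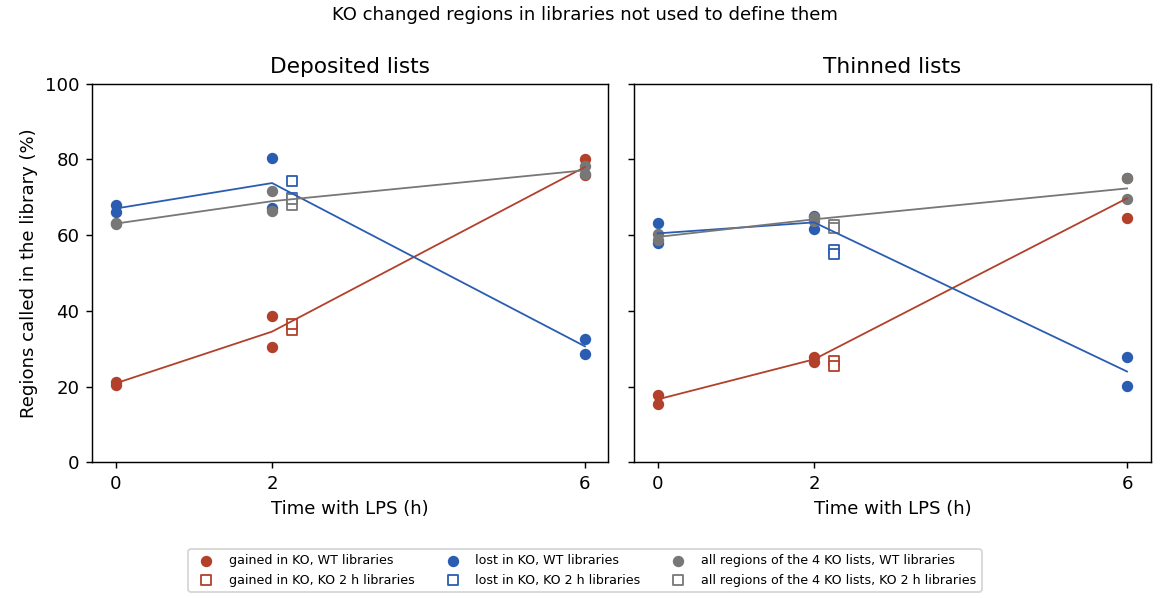
Share of regions called in the 6 WT libraries (circles, with a line through the mean at each time) and the 2 KO libraries at 2 h (squares, drawn slightly to the right), for regions gained in KO (red), lost in KO (blue) and all regions of the 4 KO lists (grey). The left panel uses the deposited lists and the right panel thinned lists. Gained regions are called in 20.5% to 21.3% of cases in WT at 0 h and 75.9% to 80.1% at 6 h, and lost regions in 66.1% to 67.9% and 28.7% to 32.6%.

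Region by region, 6466 of the KO gained regions (44.3%) met the gain rule in WT as well, against 10.8% of all regions. Without KO 6 h replicate 2 the first share was 29.1%. A region called in 1 KO library at 6 h and 0 at 0 h did so in 12.3% of cases, and a region called in all 4 in 0.551%. On regions chained from the WT lists, the same rule gave 11588 gains (11.6%) and 1733 losses (1.73%), and 6486 of these gains (56.0%) were gained in KO. The share of all WT-chained regions that were gained or lost in KO was not computed. More WT libraries called the region at 6 h than at 0 h for 74.5% of the KO gains, fewer for 3.96% and as many for 21.6%, against 26.1%, 7.27% and 66.6% of all regions. Among lost regions, 150 (24.9%) met the loss rule in WT, against 1.47% of all regions, and 146 of the 1733 WT losses (8.42%) were lost in KO. The share of 24.9% was 12.5% without KO 6 h replicate 1, 14.5% without the first KO library at 0 h and 11.8% without the second. Fewer WT libraries called the region at 6 h than at 0 h for 60.0% of the KO losses, against 7.27% of all regions.

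KO gains were called in WT before LPS less often than regions in general, but some were. Both WT libraries at 0 h called 1548 of them (10.6%), against 56.4% of all regions, and 858 (5.87%) were called in all 6 WT libraries, against 50.1% of all regions. At the 858, median summit coverage was 10.2 and 10.6 times background in KO at 6 h and 8.50 and 7.98 times in WT at 0 h. When the WT lists were thinned to the background of KO 0 h replicate 2, both WT libraries at 0 h called 610 of the 858 (71.1%) and 1044 of the 1548 (67.4%). The same share over all regions called in both WT libraries at 0 h was not computed, so these values have no baseline. The strongest of the 858 are the regions on chromosomes 12 and 2 described above. They are followed by chromosome 1 at 6435298 to 6435935, with 97 and 70 summit reads in KO at 6 h, against no peak in KO at 0 h and 21 and 18 reads in WT at 0 h. The next is chromosome 6 at 24011994 to 24012970, with 92 and 57 reads in KO at 6 h and 20 and 16 in WT at 0 h. Whether these WT and KO libraries differ beyond replicate spread was not tested.

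Conversely, 985 KO gains (6.74%) were called in 0 of the 6 WT libraries, against 8.94% of all regions. They were lower peaks than gains as a whole, with a median of 21 and 16 summit reads in KO at 6 h, 6.28 and 7.37 times background. The strongest, on chromosome 11 at 107442553 to 107442972, had 32 and 23 reads and a mean percentile of 50.4 ± 3.7 (SD, n = 2). The next 3 were 80622046 to 80622413 of chromosome 11, 48101993 to 48102322 of chromosome 14 and 3962365 to 3962944 of chromosome 19, whose mean percentiles lay between 43.9 and 47.2. The share over all regions mixes regions with fewer and with more KO calls than a gain has. It is therefore not a matched baseline, and whether 6.74% is low for regions called as often in KO was not tested.

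KO libraries at 2 h called 35.0% and 36.5% of the gained regions, and 24.0% were called in both, 23.5% in 1 and 52.5% in neither, against 62.3% of all regions in both and 24.9% in neither. The 24.0% was 41.3% without KO 0 h replicate 1. In thinned lists the 2 libraries called 26.7% and 25.6% of the gains, against 62.8% and 62.0% of all regions. As deposited they called 68.0% and 69.4% of all regions. Gains called in both KO libraries at 2 h had the higher median at 6 h, 10.2 and 10.6 times background, against 8.37 and 8.75 times for gains called in neither. Of the lost regions, 58.6% were called in both KO libraries at 2 h and 14.6% in neither. The first of these shares was 33.7% without KO 0 h replicate 1 and 26.0% without the second, while it was 74.4% without KO 6 h replicate 1. Leaving out a library also changes which regions count as lost, since 1 call then stands for 2.

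Changed regions were spread over the genome and mixed with the regions called in all 4 libraries. The median gap from a gained region to the nearest of those was 8060 bp, that from a lost region 7571 bp, and that between such regions themselves 7105 bp. Within 10 kb of one lay 56.1% of the gained, 57.5% of the lost and 61.1% of the regions called in all 4. Within 10 kb of another gained region lay 25.6% of the gained regions, 23.4% of the lost and 24.7% of those called in all 4, so the 3 shares lay close together. Runs of 2 or more gained regions with no other region between held 29.7% of the gains, and the longest run had 6. Gains are 14.6% of all regions, and the share in runs that this rate alone would give was not computed.

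A few windows were dense in gains. On a fixed grid of 100 kb, 8583 of the 15725 windows with any region held a gained one, and 534 held 4 or more. The densest, on chromosome 13 at 16000001 to 16100000, had 10 gained among 12 regions and none called in all 4 libraries, and 8 of the 10 were also gained in WT. In thinned lists it had 9. Chromosome 13 at 42300001 to 42400000 had 9 gained among 16 regions, 8 of them also in WT. Chromosome 6 at 17600001 to 17700000 had 9 among 19 with 2 also gained in WT, and chromosome 15 at 36600001 to 36700000 had 8 among 18 with 5 also in WT. These 3 windows held 7 gains each in thinned lists. Windows on chromosome 2 starting at 102500001 and 158000001 were among 16 with 7 gained regions, and in thinned lists they had 5 and 2. For losses, no window held more than 2.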

How the data were processed

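Each library has 1 deposited peak list on mm9. The tools named are Bowtie2 2.1.0, Picard and MACS2, per the submitters' processing notes. The sources used here do not state how duplicates and the Tn5 offset were treated or which caller settings applied. Without offset correction, peak borders would shift by a few bases. Per the column order of the deposited lists, each peak has a score (10 times the −log10 q), a fold ratio against local background, a −log10 p-value, a −log10 q-value and a summit position. Peaks were called per library, as the deposited peak names show. These are the authors' own values and were used to describe and rank peaks within a list.

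Summit and background reads were solved from each peak's fold, a ratio of both after adding 1 to each, and its Poisson p. Whole reads matched the deposited p within 0.001 (log10) for 100% of peaks. Read totals were not used here, so background coverage stands for depth. Scaling to background does not equalise read number or enrichment. No counting interval applies to a call, and an uncalled region may be open below the limit.

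Peak numbers were compared by exact permutation tests. Region counts have no test. The counting code was tested on simulated data. Named regions are the 12 gained and 8 lost of highest mean percentile, the 4 highest gains with 0 of 6 and with 6 of 6 WT calls, the 3 highest gained in KO and lost in WT, the 3 widest, the lowest of each class, and the 6 and 3 windows with most gains and losses. The members and lists were chosen with earlier results of these data known. Alternatives were overlap, q threshold, thinning, equal peak number, leaving out each library, scaling without a random draw and chaining over all 12 lists, the last 2 added after the data were examined. Python 3.11.15, numpy 2.4.6, pandas 2.3.3, scipy 1.17.1 and matplotlib 3.10.9 were used.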

Additional observations from a re-analysis of the deposited data

Results flagged for a closer look

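Genotypes moved in opposite directions by 6 h at 91 regions, which is what drew attention to them. The difference was not tested. At 80 regions both KO libraries gained a peak and both WT libraries lost theirs, and at 11 both KO libraries lost a peak and both WT libraries gained one. The 80 are 0.547% of the KO gains, against 1.47% of all regions lost in WT, and the 11 are 1.83% of the KO losses, against 10.8% of all regions gained in WT, so both patterns were rarer than over all regions. After thinning, 47 and 20 regions had these patterns. The highest-ranked of the 80 lay on chromosome 4 at 133453145 to 133453589, with 27 and 19 summit reads in KO at 6 h and no KO peak at 0 h, while WT had no peak at 6 h and 14 and 16 reads at 0 h. It was followed by chromosome 17 at 35169389 to 35169787, with 33 and 26 reads in KO at 6 h and 21 and 20 in WT at 0 h, and by chromosome 13 at 44927454 to 44927841. The median of the mean percentile was 19.9 over the 80 and 8.59 over the 11.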

How the results depend on the processing

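Chaining only peaks that overlapped by at least 50% of the shorter one gave 14513 gained and 594 lost regions, and −log10 q of at least 5 gave 14290 and 549. With that q the share of gains also gained in WT was 42.5%, that of losses also lost in WT 30.8% and that of gains within 10 kb of a region called in all 4 libraries 54.1%. In thinned lists 1246 regions were lost and 89.8% of changed regions gained. The shares of gains also gained in WT, called in both KO libraries at 2 h and within 10 kb were 45.2%, 17.0% and 55.1%, and those of losses also lost in WT and called in both at 2 h 19.2% and 49.6%. Scaling without a random draw gave 1180 lost regions, 90.7% gained, 48.4% of gains also gained in WT, and 18.1% of gains and 51.8% of losses called in both at 2 h. An equal number of peaks, which leaves no peak number to compare, gave 5234 gained and 3490 lost regions, 60.0% gained and a median gained width of 507 bp. The 5 shares in the order above were then 52.1%, 16.7%, 49.8%, 32.4% and 54.3%. Chaining over all 12 lists gave 14353 and 575 regions and a gained width of 451 bp. Leaving out each library in turn gave 16890 to 28603 gained and 875 to 3622 lost regions, 82.3% to 97.0% gained, and a gained width of 292 to 412 bp. The 5 shares then ran over 29.1% to 40.4%, 17.1% to 41.3%, 55.0% to 62.5%, 11.8% to 21.1% and 26.0% to 74.4%. Gained regions outnumbered lost ones under all of these settings. Peak number and covered length stayed higher at 6 h wherever they could be computed. Of the 37 named regions none turned its direction. Of the 36 that kept a peak, the call difference of 6 changed with an equal number of peaks and of 1 with thinning, and the lowest gained region had no peak left under either. With −log10 q of at least 5, the lowest gained and the lowest lost region had none. Counting the change within each replicate number (replicate block) gave the same 14612 and 602 regions. The peak difference was again 25049.5, with an exact sign-flip p of 0.5. Deviations of same-numbered libraries correlated at 0.035 over the 46316 regions called in all 4 libraries. That value cannot tell whether same-numbered libraries share more than a number. The cause of these shifts was not tested, and depth cannot be told apart from time, since both KO libraries at 0 h were shallower than both at 6 h.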

Other observations

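All 20 chromosomes contributed gained regions. The share of regions gained was 13.0% on chromosome 7 and 13.1% on chromosome 11 at the low end, and 15.9% on chromosome 10 and 16.4% on chromosome 18 at the high end. On the X chromosome it was 15.6%. The 95% Wilson intervals, which cover counting error only, were 12.2% to 13.9% on chromosome 7 and 15.2% to 17.8% on chromosome 18. The share of gains that were also gained in WT was 38.1% on chromosome 17 and 49.7% on chromosome 16, with the other chromosomes between.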
